A study of Mus musculus with 24 samples.

Results

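The response of untransfected N1E-115 cells to differentiation medium was read from 8 of the 24 samples of the series: 4 samples grown in proliferation medium (WT-p) and 4 in differentiation medium (WT-d). The samples were chosen by their labels, which call them proliferated or differentiated cells with no chimeric protein. N1E-115 is a mouse neuroblastoma line of the sympathetic nervous lineage, here used as a neuronal model. WT-p cells grew in DMEM with 10% fetal calf serum. WT-d cells were replated at low density 1 day before the change of medium and then kept in DMEM with 2.5% fetal calf serum and 1.25% dimethyl sulfoxide. The 16 other samples carry 1 of 2 fusions of oleosin with transcobalamin, the blood carrier of cobalamin (vitamin B12): the N-terminal fusion (TO), reported to bind cobalamin with high affinity, or the C-terminal fusion (OT), with no detectable binding, each with 4 samples per medium. They served here for the estimate of spread and for a comparison of responses.

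Neuroblastoma cells resemble sympathetic neuron precursors that failed to stop dividing. With less serum and with dimethyl sulfoxide, N1E-115 cells are known to leave the cell cycle, extend neurites and become electrically excitable. Serum supplies growth factors that drive E2F transcription factors, which turn on DNA replication genes at the start of S phase. A later wave of mitotic genes is held by the DREAM and MuvB complexes at a promoter element named CHR (cell cycle genes homology region). WT-p and WT-d differ in serum, in dimethyl sulfoxide and in replating together, so the parts of these 3 changes cannot be told apart. The time spent in differentiation medium is not given in the sources used here.

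The 15 markers of sympathoadrenal neuroblastoma examined, among them Phox2a, Hand2, Gata3, Th and Dbh, were well above background in all 8 samples. Chgb, a granule protein of chromaffin cells and sympathetic neurons, had a WT-p level at percentile 99.8 of all genes on the array. Of 18 glial markers, 10 were well above background in every WT-p sample and 9 in every WT-d sample, and 5, Mog, Olig1, Aldh1l1, Fabp7 and Slc1a3, in none. The mean level of the glial list ran from 7.77 to 7.87 in WT-p and from 7.95 to 7.99 in WT-d on the log2 scale, and its largest difference was that of Mbp, which rose by 1.65. Of 17 blood and endothelial markers, 6 and 8 were above background in every sample of the respective group, with list means of 7.07 to 7.13 and 7.29 to 7.40, and Ptprc, Itgam and Cdh5 were above it in no sample. Vwf rose by 1.20. Of 18 fibroblast and smooth muscle markers, 8 were above background in every WT-p sample and 8 in every WT-d sample, with means of 7.49 to 7.55 and 7.59 to 7.72, and Col3a1, Lum, Postn, Fap, Dpt and Twist1 were in none. The sets of 8 were not the same: Pdgfra, Cnn1 and Des were among the WT-p set alone, and Thy1, Dcn and Prrx1 among the WT-d set alone. Pdgfrb rose by 1.39 and Thy1 by 1.38. These higher means of the 3 lists in WT-d accompany every difference given here, and their part in it was not tested. In bulk RNA, fewer cells of a type and less RNA per cell cannot be told apart.

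Levels are log2 values of normalized intensity of each sample's own dye on 2-colour Agilent arrays with 41174 probes for 27597 genes. The median raw signal ran from 72.0 to 139 in the 8 samples, and 54.7% to 63.5% of spots were well above background. A test in limma, with the dye as a term and the array as a block, covered the 16240 genes that exceeded background throughout at least 1 of the 6 groups. Genes with a Benjamini-Hochberg adjusted p below 0.05 count as called. The replicates are described as biological, but WT-p replicates 1 and 3 carry the tube labels 1b and 1, and WT-d replicates 2 and 4 carry 6b and 6. Whether those pairs came from the same RNA is not given. If they did, the p-values count a technical spread in part.

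Between WT-p and WT-d, 9889 of 16240 genes were called (60.9%). Of these, 5345 were higher in WT-d (32.9% of the genes tested) and 4544 were lower (28%). The counts of list members that rose or fell, given below, stand against these shares. Over 2-fold, 1095 genes were higher (6.74%) and 1161 were lower (7.15%). The median difference over all genes was 0.06. For 8327 of the 16240 genes (51.3%), all samples of one medium lay above all samples of the other. Samples of 1 medium differed from each other with an SD of the log2 differences of 0.233 to 0.390 over genes, and samples of different media with 0.708 to 0.917. WT-p replicates 1 and 3 lay farther from WT-d than replicates 2 and 4 did. Without those 2 samples, 4339 genes were higher and 3948 lower. Within WT-d, replicate 4 stood apart in cell cycle genes, and it shares its array with a proliferating OT sample.

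**Figure D1:**
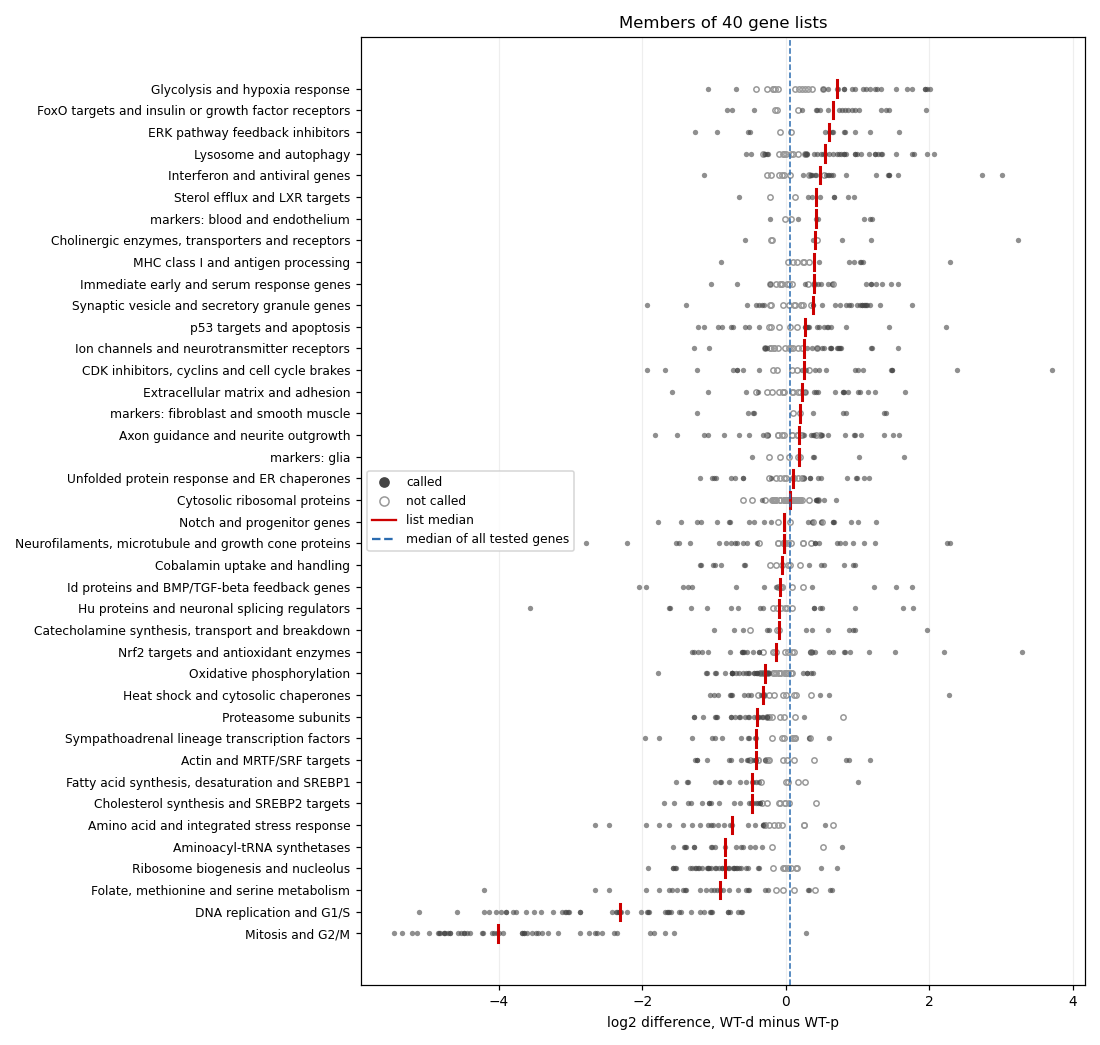
Log2 differences (WT-d minus WT-p, x axis) of the tested members of 40 gene lists (y axis, ordered by median); filled points passed adjusted p 0.05, open points did not, red bars are list medians and the dashed line is the median of all genes, 0.06. The mitotic list lies lowest at a median of -4.01, followed by DNA replication at -2.31, while the glycolysis and hypoxia, FoxO target, ERK feedback and lysosome lists lie highest, at 0.72, 0.66, 0.60 and 0.55.

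Mitotic genes fell the most. Of 50 genes of mitosis and the G2/M transition, 49 fell, each over 2-fold, and 1 rose, with a median log2 difference of -4.01. Mki67, the proliferation antigen that coats mitotic chromosomes (probe at chr7:135528251-135528310 of mm8), read 12.76, 13.55, 12.99 and 13.74 in WT-p replicates 1 to 4 and 7.50, 7.66, 7.58 and 8.21 in WT-d replicates 1 to 4. It was 44.0-fold lower in WT-d (log2 -5.46, SE 0.26, adjusted p = 5.26e-13). No sample of one medium reached the range of the other, a condition for the genes named by largest difference. Ccnb1, the mitotic cyclin, fell from 12.38 to 13.00 over the WT-p samples to 7.03 to 7.83 over the WT-d samples (log2 -5.35, SE 0.37, adjusted p = 9.94e-11). Ccna2, cyclin A, fell by 5.14, Sgo1, the protector of centromeric cohesion, by 5.21, and Cenpe, a kinetochore motor, by 4.97 (other probes -2.29 and -1.98). Pbk, a mitotic kinase, fell by 5.17, Shcbp1 by 5.45 and Pimreg by 4.96. The transcription factor Foxm1, which drives this gene wave, read 11.08 to 11.64 in WT-p and 6.72, 6.76, 6.96 and 8.34 in WT-d, a fall by 4.10 (SE 0.39, adjusted p = 1.22e-08).

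The promoters of the mitotic genes are shown because these members moved together and share short elements that the choice of the list did not use. The windows span 250 bases before to 50 after the RefSeq start on GRCm38.p6. Capitals mark the CHR (TTTGAA or TTCGAA) and the CCAAT box (CCAAT), on either strand. Mki67 lies at chr7:135716330-135716629 on the minus strand, Cdc20, the activator of the anaphase ubiquitin ligase, at chr4:118437294-118437593 on the minus strand, and Top2a, the topoisomerase that untangles sister chromatids, at chr11:99024140-99024439 on the minus strand.
Mki67: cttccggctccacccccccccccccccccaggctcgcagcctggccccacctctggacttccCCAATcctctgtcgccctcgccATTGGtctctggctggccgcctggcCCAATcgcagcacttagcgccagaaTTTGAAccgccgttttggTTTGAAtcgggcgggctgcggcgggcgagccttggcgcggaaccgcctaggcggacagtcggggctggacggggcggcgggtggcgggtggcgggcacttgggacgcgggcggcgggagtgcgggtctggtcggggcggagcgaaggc
Cdc20: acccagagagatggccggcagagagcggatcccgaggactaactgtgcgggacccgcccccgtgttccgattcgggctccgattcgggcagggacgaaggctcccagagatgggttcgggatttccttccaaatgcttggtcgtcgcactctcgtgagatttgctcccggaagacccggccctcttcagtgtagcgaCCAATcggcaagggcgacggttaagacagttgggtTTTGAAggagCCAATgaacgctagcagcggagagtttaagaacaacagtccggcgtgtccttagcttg
Top2a: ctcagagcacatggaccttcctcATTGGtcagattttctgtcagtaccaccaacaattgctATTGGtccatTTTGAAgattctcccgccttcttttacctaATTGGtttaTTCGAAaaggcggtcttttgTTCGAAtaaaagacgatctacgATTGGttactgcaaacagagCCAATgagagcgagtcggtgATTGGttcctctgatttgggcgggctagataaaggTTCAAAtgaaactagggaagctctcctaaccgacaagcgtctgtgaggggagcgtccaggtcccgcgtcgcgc
Of the 50 mitotic genes, 42 had a promoter in the table, and 32 of these (76.2%) held a CHR, against 19.4% of all 27025 promoters. A CCAAT box was found in 30 of the 42 (71.4%), against 37.9% of all. These are letter matches and not measured binding. The 3 genes shown fell by 5.46, 4.68 and 4.76. Cdc20 read 14.22 to 14.59 in WT-p and 9.24 to 10.03 in WT-d (SE 0.16, adjusted p = 5.23e-15). Top2a read 12.17 to 12.56 in WT-p and 7.28, 7.33, 7.26 and 8.12 in WT-d (SE 0.39, adjusted p = 1.13e-09), and its other probe fell by 2.57.

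Several mitotic genes reached the background of the array in WT-d, so only a lower bound of their fall can be given. A bound sets the WT-p mean against the lowest signal among probes well above background in each WT-d sample, or the probe's own signal where that is higher. Ckap2l, a spindle protein, was at least 11.8-fold lower, Ndc80, of the outer kinetochore, at least 11.5-fold, Aspm, of the spindle pole, at least 9.14-fold (other probe -0.57 on the log2 scale), Kif14, a kinesin of cytokinesis, at least 7.94-fold, and Kif2c, a microtubule-depolymerizing kinesin, at least 6.55-fold. All 5 were well above background in the 4 WT-p samples and in no WT-d sample, the pattern that the rule for genes measured in 1 group only asks for. Their fitted log2 differences, in the same order, were -3.56, -3.53, -3.21, -3.09 and -2.74. Racgap1, a regulator of the contractile ring, was the single mitotic member called higher, by 0.29 (adjusted p = 0.0345), with overlapping groups, and its other probe read -0.29. Bub3, a spindle checkpoint protein, fell by 1.55, while 1 of its 3 probes read 0.22.

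WT-d replicate 4 read higher than the other WT-d samples across these genes. The mean level of the mitotic list was 11.80 to 11.96 in WT-p, 7.91, 7.93 and 7.90 in WT-d replicates 1 to 3 and 8.59 in WT-d replicate 4. Aurka, the spindle pole kinase, read 9.05, 9.20 and 9.03 in replicates 1 to 3 and 10.65 in replicate 4, against 13.98 to 14.50 in WT-p. Replicate 4 was thus the highest of its group but far below every WT-p sample. Without it the median of the mitotic list was -4.33, and 49 of 50 members still fell.

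**Figure D2:**
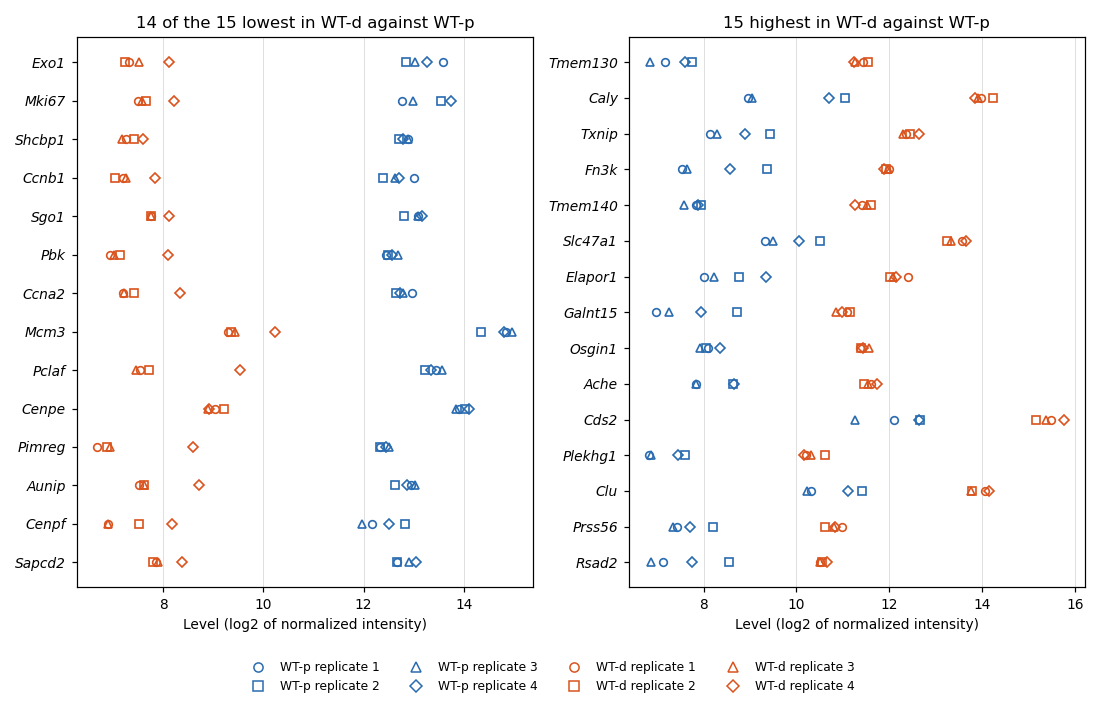
Levels (log2 of normalized intensity, x axis) of 14 of the 15 genes with the largest falls (left) and the 15 with the largest rises (right) among called genes whose groups do not overlap; blue symbols are WT-p, orange symbols WT-d, and the symbol shape gives the replicate. On the left, WT-d replicate 4 (orange diamonds) often lies right of the other WT-d samples, as for Pclaf at 9.52; on the right, WT-p replicates 2 and 4 often lie right of replicates 1 and 3, as for Caly at 11.05 and 10.69 against 8.97 and 9.04.

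All 52 genes of DNA replication and the G1/S transition fell, 46 of them over 2-fold, with a median of -2.31. Exo1, an exonuclease of mismatch repair and replication forks (probe at chr1:177745226-177745285 of mm8), had the largest fall of all genes with a symbol and separate groups. It read 13.59, 12.84, 13.02 and 13.27 in WT-p and 7.31, 7.24, 7.51 and 8.12 in WT-d (log2 -5.63, SE 0.24, adjusted p = 8.18e-14). Mcm3, a subunit of the replicative helicase, read 14.34 to 14.97 in WT-p and 9.30, 9.35, 9.43 and 10.23 in WT-d (log2 -5.11, SE 0.20, adjusted p = 3.80e-14). Mcm5, of the same helicase, read 12.77 to 13.48 in WT-p and 7.42, 7.56, 7.29 and 10.57 in WT-d, so replicate 4 was far above the other WT-d samples. The difference was -4.59 with that sample and -5.52 without it. Mcm2 did not show this split: its WT-d samples read 9.26 to 9.41 (log2 -3.62, adjusted p = 3.75e-13).

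The fall extended over the parts of the replication machinery to different degrees. Pclaf, a partner of the sliding clamp, fell by 5.10, Tyms, thymidylate synthase, by 4.21, Pole, the leading-strand polymerase, by 4.13, Rfc5, of the clamp loader, by 4.03, and Rrm2, the ribonucleotide reductase subunit, by 3.97. Pcna, the sliding clamp, fell from 14.54 to 14.98 to 12.54 to 12.93 (log2 -2.02, SE 0.16, adjusted p = 1.17e-09), in every WT-d sample below every WT-p sample. The smallest falls named were those of Slbp, the histone mRNA binding protein, and Cdc25a, a phosphatase that opens S phase, at -0.61 and -0.62. For Slbp and E2f1, WT-p replicate 3 was removed as an outlier spot, so 3 WT-p samples remained.

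Among the regulators, E2f1 read 11.56, 10.70 and 10.82 in WT-p and 8.88 to 9.10 in WT-d (log2 -1.93, adjusted p = 3.99e-09), and E2f2 fell by 3.89. Promoters of 3 replication genes are shown because they are among those that fell the most and have the E2F letters given in capitals. The letters searched on either strand were TTCCCGC as one form and TTGGCGC as another, with TTCGCGC and also TTGCCGC as further forms, and overlapping matches are joined. Mcm3 lies at chr1:20820263-20820562 on the minus strand, Mcm5 at chr8:75109259-75109558 on the plus strand and Pclaf at chr9:65890073-65890372 on the plus strand, all on GRCm38.p6 from RefSeq.
Mcm3: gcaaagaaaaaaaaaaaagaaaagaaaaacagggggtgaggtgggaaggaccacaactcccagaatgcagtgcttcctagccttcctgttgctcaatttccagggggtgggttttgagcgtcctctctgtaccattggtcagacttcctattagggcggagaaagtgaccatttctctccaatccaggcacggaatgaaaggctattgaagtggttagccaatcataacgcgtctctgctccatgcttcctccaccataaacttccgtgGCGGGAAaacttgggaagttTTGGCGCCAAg
Mcm5: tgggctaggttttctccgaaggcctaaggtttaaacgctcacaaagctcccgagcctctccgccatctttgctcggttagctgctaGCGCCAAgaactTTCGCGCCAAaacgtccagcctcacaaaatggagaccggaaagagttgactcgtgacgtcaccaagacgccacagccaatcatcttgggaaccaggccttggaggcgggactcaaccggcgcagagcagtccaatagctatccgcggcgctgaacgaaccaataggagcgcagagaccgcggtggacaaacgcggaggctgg
Pclaf: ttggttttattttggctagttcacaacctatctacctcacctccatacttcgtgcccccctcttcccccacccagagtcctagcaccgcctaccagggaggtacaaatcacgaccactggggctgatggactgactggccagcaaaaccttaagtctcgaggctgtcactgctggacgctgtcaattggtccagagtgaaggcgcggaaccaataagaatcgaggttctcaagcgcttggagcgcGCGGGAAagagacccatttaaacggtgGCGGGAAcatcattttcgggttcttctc
Promoters were found for 43 of the 52 replication genes. An E2F match lay in 24 of them (55.8%), against 9.7% of all promoters and 7 of 42 mitotic promoters (16.7%). The other lists searched held it in 15.4% (aminoacyl-tRNA synthetases) to 28.0% (amino acid response) of promoters, with 20.0% for the lysosome list, which rose. A CHR lay in 7 of 43 replication promoters (16.3%). CCAAT boxes were in 62.8% of the replication promoters.

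**Figure D3:**
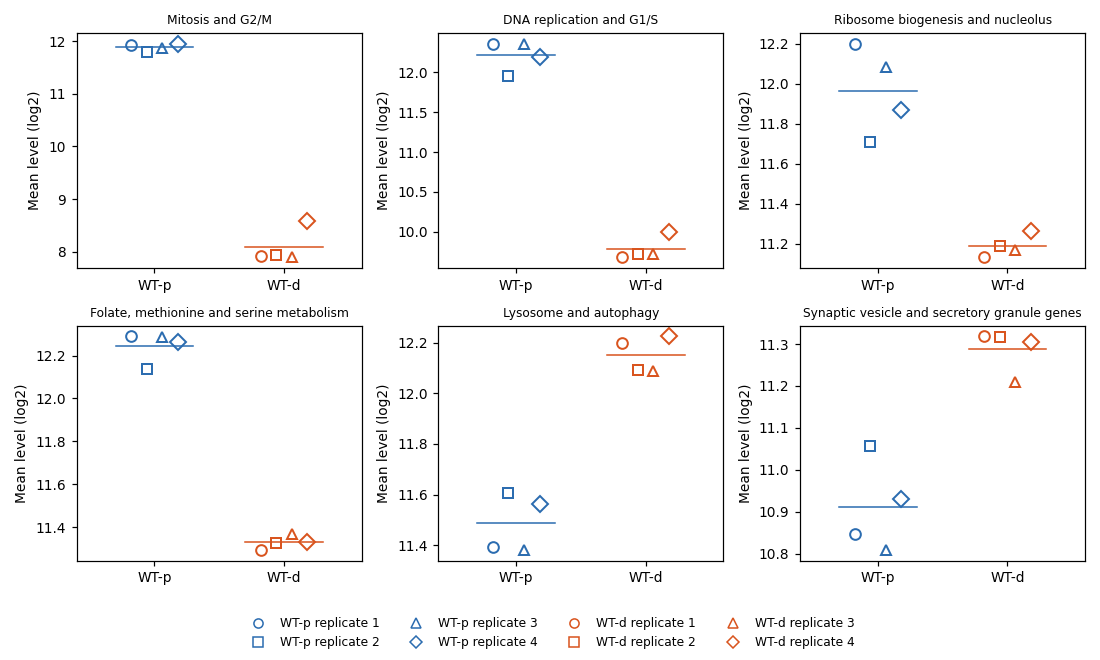
Mean level (log2 of normalized intensity) over the tested members of 6 gene lists in each WT-p (blue) and WT-d (orange) sample; symbols give the replicate and lines the group means, and each panel has its own axis range, which does not start at 0. The 2 media separate in each panel, and WT-d replicate 4 lies above the other WT-d samples for mitosis (8.59) and replication (10.00).

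Of 26 cyclins, CDK inhibitors and other cell cycle brakes tested, 13 rose and 8 fell, against 32.9% and 28% of all genes, with a median of 0.26. The D-type cyclin gene Ccnd1, which serum induces, fell from 11.60 to 12.12 to 9.80 to 10.05 (log2 -1.94, SE 0.12, adjusted p = 1.91e-11), and its kinase Cdk4 fell by 1.24. The CDK inhibitors named went different ways. Cdkn1a (p21) read 10.38 to 10.88 in WT-p and 9.52 to 10.12 in WT-d, a fall by 0.74 (adjusted p = 0.0111), and Cdkn2c (p18) fell by 0.67. Cdkn1b (p27) differed by 0.29 with overlapping groups (adjusted p = 0.0373), had an adjusted p of 0.119 without WT-p replicates 1 and 3, and its other probe read -0.12. Genes of other brakes rose: Mxd4, a MAX partner that opposes MYC, by 2.39 on its brightest probe (its other probes read 1.69 and -0.01), Mxd1 by 1.49 (other probe 0.01), Btg2, an antiproliferative gene, by 1.46 (other probes 0.69 and 0.52), and Rbl2 (p130), the pocket protein of resting cells, by 0.41 (other probe 0.09). Rbl1 (p107), the pocket protein of cycling cells, fell by 1.68. Myc read 12.72 to 12.79 in WT-p and 11.84 to 12.26 in WT-d (log2 -0.68, adjusted p = 0.000349), and Mycn, the neuroblastoma oncogene, fell by 0.51 (adjusted p = 0.00152) with overlapping groups.

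Immediate early genes, which serum switches on quickly, rose more often than they fell in the low-serum medium. Of 27 tested, 13 rose and 3 fell, against 32.9% and 28% of all genes (median 0.39, and 0.25 without WT-p replicates 1 and 3). Egr1 read 10.31, 11.04, 10.12 and 10.69 in WT-p and 11.37, 12.46, 11.76 and 11.39 in WT-d (log2 1.26, SE 0.26, adjusted p = 0.000242), with all WT-d samples above all WT-p samples. Jun rose by 1.34. Of 15 feedback inhibitors of the ERK kinase pathway, 9 rose and 4 fell (median 0.60), against 32.9% and 28% of all genes. Without WT-p replicates 1 and 3, 7 rose and 4 fell (median 0.40), and the median was 0.26 within slide 3, with 1 sample a group. Spry1 rose by 1.57 and Dusp6, the ERK phosphatase, by 0.97, while Etv4, an ERK-induced transcription factor, fell by 1.27. Of 27 actin and SRF target genes, 3 rose and 14 fell (median -0.41), with Acta2, smooth muscle actin, at -1.23 and Flna, filamin, at -1.27, though another probe of each read 0.10 and 0.34. Of 19 Id proteins and BMP/TGF-beta feedback genes tested, 8 fell and 4 rose, against 28% and 32.9% of all genes (median -0.07). Among them, 3 inhibitors of differentiation fell: Id1 by 2.05, Id2 by 1.95 and Id3 by 1.43 (adjusted p = 1.99e-07, 8.64e-07 and 0.00119).

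Genes that build ribosomes fell, whereas few of the ribosomal proteins themselves passed the test. Of 47 genes of ribosome biogenesis and the nucleolus, 37 fell and 2 rose (median -0.85). Ddx21, a nucleolar helicase, read 10.93 to 11.37 in WT-p and 9.18 to 9.32 in WT-d (log2 -1.92, SE 0.13, adjusted p = 7.36e-11). Dkc1, the pseudouridine synthase, fell by 1.54, Noc2l by 1.56, Nop56, of the box C/D particles, by 1.56 (another probe 0.36) and Ncl, nucleolin, by 0.89 (another probe -1.74). Of 51 cytosolic ribosomal proteins, 6 rose and 1 fell (median 0.06, the sign of which changes under some of the other processing settings). Without WT-p replicates 1 and 3, 2 rose.

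Serine, folate and one-carbon metabolism fell in the same way. Of 33 genes tested, 25 fell and 4 rose (median -0.92). Psph, the last enzyme of serine synthesis, read 14.49, 14.15, 14.14 and 14.10 in WT-p and 11.59, 12.19, 11.46 and 11.02 in WT-d (log2 -2.66, SE 0.13, adjusted p = 5.22e-13). The earlier steps Psat1 and Phgdh fell by 1.94 and 1.43. Shmt2 and Mthfd2, which carry the serine carbon into mitochondrial folate, fell by 1.76 and 1.62, and Cth, which makes cysteine from cystathionine, fell by 2.46. All 4 WT-d samples lay below all 4 WT-p samples for each of these 6 genes. The groups were separate, in either direction, for 51.3% of all genes tested. Odc1, the first enzyme of polyamine synthesis, fell by 1.40.

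Targets of the amino acid response, which the factor ATF4 controls, mostly fell too. Of 29 tested, 19 fell and 1 rose (median -0.75), and Atf4 itself fell by 0.87 (SE 0.10, adjusted p = 1.75e-07). Slc7a5, the leucine transporter, fell by 1.19 and Trib3 by 0.53 with overlapping groups (other probe -0.33, not called), whereas Ddit3 (CHOP) differed by 0.25 (adjusted p = 0.194). Of 19 aminoacyl-tRNA synthetases, which charge tRNAs with amino acids, 16 fell and 1, Qars, rose, by 0.78 (median -0.84), and another probe of Qars read 0.19 (adjusted p = 0.0857). Aars, for alanine, read 15.08 to 15.62 in WT-p and 13.51 to 14.08 in WT-d (log2 -1.58, SE 0.17, adjusted p = 6.41e-08) on its brightest probe, and its 5 probes ran from -1.80 to -0.12. Gars, for glycine, read 12.36 to 12.64 and 10.85 to 11.20 (log2 -1.39, SE 0.15, adjusted p = 4.90e-08). Their promoters are shown for the letters of the amino acid response element (TGATGNAA, either strand), in capitals, which 5 of 13 synthetase promoters (38.5%) and 8 of 25 amino acid response promoters (32.0%) held, against 4.1% of all. The amino acid response list was made of targets of that response, so its share is not independent of the choice of list. Members that fell were not compared with the others for this element. Aars lies at chr8:111033592-111033891 on the plus strand and Gars at chr6:55037751-55038050 on the plus strand on GRCm38.p6, from RefSeq.
Aars: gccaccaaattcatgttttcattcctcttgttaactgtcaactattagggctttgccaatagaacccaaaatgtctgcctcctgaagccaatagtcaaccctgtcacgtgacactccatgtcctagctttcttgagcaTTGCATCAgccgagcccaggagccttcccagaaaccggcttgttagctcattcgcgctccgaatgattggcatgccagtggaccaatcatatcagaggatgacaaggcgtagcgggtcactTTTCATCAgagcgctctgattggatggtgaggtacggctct
Gars: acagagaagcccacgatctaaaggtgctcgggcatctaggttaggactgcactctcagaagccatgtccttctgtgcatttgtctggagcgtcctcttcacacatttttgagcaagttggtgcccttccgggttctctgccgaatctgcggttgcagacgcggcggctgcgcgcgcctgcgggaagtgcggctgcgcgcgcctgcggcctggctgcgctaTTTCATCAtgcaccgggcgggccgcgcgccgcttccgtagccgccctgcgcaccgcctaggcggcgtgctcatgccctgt

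Sterol and fatty acid synthesis genes fell. Of 26 cholesterol synthesis genes and SREBP2 targets, 18 fell (median -0.47). The 2 members above 0, Tm7sf2 and Sc5d, named after their values were seen, differed by 0.42 and 0.05 (adjusted p = 0.145 and 0.586). Nsdhl, a sterol demethylation enzyme, read 9.43 to 9.87 in WT-p and 7.79 to 8.16 in WT-d (log2 -1.69, SE 0.11, adjusted p = 5.33e-11). Fdps, of the isoprenoid steps, fell by 1.55 (other probe -0.93). Hmgcs1 differed by -0.33 (adjusted p = 0.0977), with WT-p replicate 3 removed as an outlier spot. Of 19 fatty acid synthesis genes, 13 fell and 1 rose (median -0.47), with Fasn at -1.53 and Fads2, a desaturase, at -1.37. Among 10 sterol efflux genes 7 rose and 1 fell, and the exporter Abca1 rose by 0.96. A CCAAT box was in 16 of 18 cholesterol gene promoters (88.9%), against 37.9% of all promoters. The sterol regulatory element, in the single form searched, was in none of these 18 promoters and in 0.1% of all.

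Mitochondrial and protein turnover genes had smaller medians. Of 54 oxidative phosphorylation genes, 27 fell and 5 rose (median -0.29), led by Cycs, cytochrome c, which fell by 1.79 (SE 0.18, adjusted p = 3.74e-08). Without WT-p replicates 1 and 3, 21 fell and 1 rose. Of 31 proteasome subunits, 22 fell and 1 rose (median -0.40), Psmd1 by 1.28. Among 24 heat shock and chaperone genes, 12 fell and 3 rose, against 28% and 32.9% of all genes (median -0.31). Hsp90aa1 was at -1.0 and Dnajb4 at 2.27. Of 29 genes of the unfolded protein response, 10 rose and 9 fell, against 32.9% and 28% of all genes, with Dnajb9 at 1.16, Manf at -1.19 and Hspa5 (BiP) at 0.24 (adjusted p = 0.0791).

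Of 36 synaptic vesicle and secretory granule genes tested, 19 rose and 7 fell, against 32.9% and 28% of all genes (median 0.39). Scg5, a granule chaperone, read 12.20, 12.95, 12.30 and 12.82 in WT-p and 14.22, 14.21, 14.18 and 14.64 in WT-d (log2 1.75, SE 0.14, adjusted p = 9.27e-10). Rab3a, the vesicle GTPase, rose by 1.32, Cpe, a prohormone carboxypeptidase, by 1.13, Scg2 by 1.11 and Chga, chromogranin A, by 1.04. The complexins, which clamp vesicle fusion, fell: Cplx1 by 1.39 and Cplx2 by 1.94 (1 of its other probes -0.71). Chgb differed by 1.06 with a WT-p spread of 15.69 to 18.03 (SE 0.40, adjusted p = 0.0276), and its adjusted p was 0.0554 without WT-p replicates 1 and 3. Its other probe read -0.04.

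Of 36 neurofilament, microtubule and growth cone genes, 11 rose and 13 fell, shares near the 32.9% and 28% of all genes (median -0.03, with a sign that changes under some of the other processing settings). Mapt, the axonal protein tau, read 11.79, 13.03, 11.89 and 12.59 in WT-p and 14.40, 14.98, 14.43 and 14.61 in WT-d (log2 2.29, SE 0.19, adjusted p = 1.73e-09). Eno2, neuron-specific enolase, read 10.74, 12.31, 10.89 and 12.22 in WT-p and 13.57 to 14.20 in WT-d, and its difference of 2.24 was 1.5 without WT-p replicates 1 and 3. Tubb2b, a tubulin of developing neurons, rose by 1.25. In the other direction, Nefh, the heavy neurofilament subunit, read 12.38 to 12.83 in WT-p and 9.74 to 9.97 in WT-d (log2 -2.78, SE 0.12, adjusted p = 9.40e-14). Stmn1, a microtubule-destabilizing protein of dividing and immature cells, fell by 2.21, Dpysl3 by 1.53, Gap43, the growth cone protein, by 0.71, Tubb3 by 0.68 and Prph, peripherin, by 0.59. Nefl and Nefm were well above background in none of the 8 samples and were not tested.

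**Figure D4:**
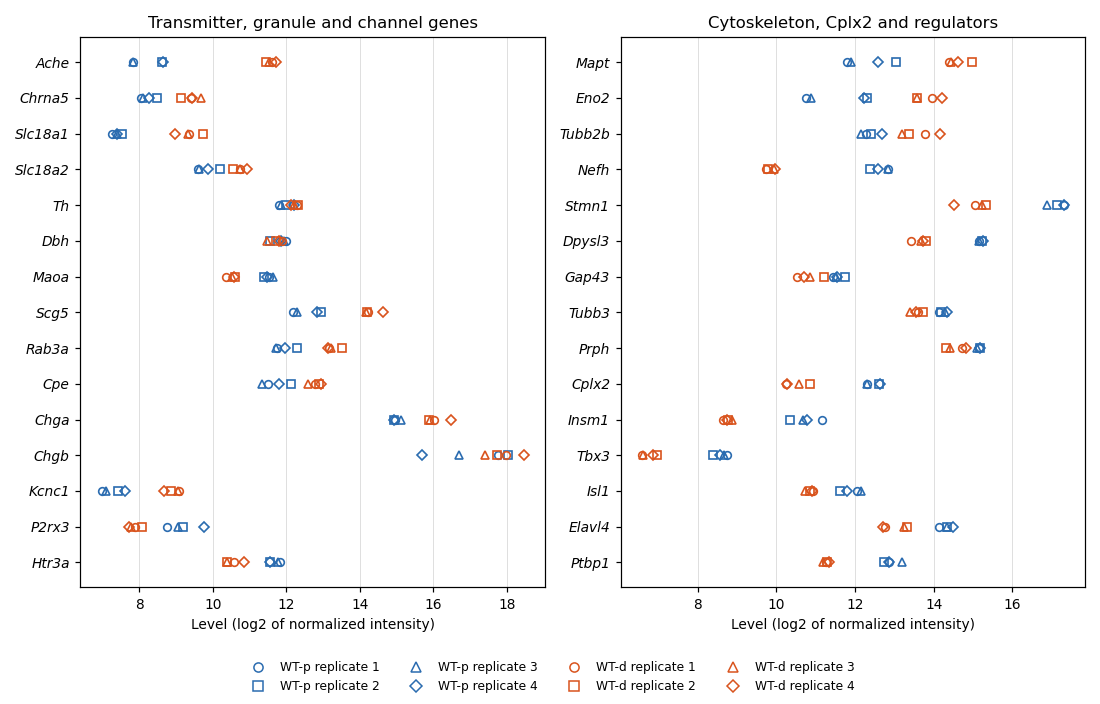
Levels (log2 of normalized intensity, x axis) of named neuronal genes in each WT-p (blue) and WT-d (orange) sample, symbol shape giving the replicate; left, transmitter, granule and channel genes, right, cytoskeletal genes, Cplx2 and regulators. Ache and Mapt lie right in WT-d and Nefh and Stmn1 left, with no overlap of the groups, while Th and Dbh overlap.

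Cholinergic and catecholamine genes were measured because N1E-115 makes both kinds of enzyme. Ache, acetylcholinesterase (probe at chr5:137523938-137523997 of mm8), read 7.83, 8.62, 7.84 and 8.64 in WT-p and 11.60, 11.45, 11.54 and 11.73 in WT-d. It was 9.45-fold higher in WT-d (log2 3.24, SE 0.33, adjusted p = 2.52e-08), the largest rise among the 8 cholinergic genes tested. Of these 8, 4 rose and 1 fell, against 32.9% and 28% of all genes. Chrna5, a nicotinic receptor subunit, rose by 1.19, and Chat, choline acetyltransferase, was above background in 3 of 4 samples of each medium and was not tested. Of 15 catecholamine genes, 7 rose and 5 fell, against 32.9% and 28% of all genes. Their median was -0.10, with a sign that changes under some of the other processing settings. Th, tyrosine hydroxylase, the first enzyme of catecholamine synthesis, read 11.80 to 12.22 in WT-p and 12.14 to 12.31 in WT-d (log2 0.28, SE 0.09, adjusted p = 0.0089), overlapping, and its adjusted p was 0.247 without WT-p replicates 1 and 3. Dbh differed by -0.11 (adjusted p = 0.405) and Ddc by -0.50 (adjusted p = 0.298, other probe 0.12). The vesicular monoamine transporters rose, Slc18a1 by 1.96 (SE 0.14, adjusted p = 2.22e-10) and Slc18a2 by 0.89, and Maoa, which degrades monoamines, fell by 1.0.

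Of 34 ion channel and receptor genes tested, 16 rose and 5 fell (median 0.26), against 32.9% and 28% of all genes. Kcnc1, a fast potassium channel, read 6.97 to 7.62 in WT-p and 8.66 to 9.09 in WT-d (log2 1.56, SE 0.16, adjusted p = 3.18e-08), and the calcium channel subunit Cacna2d2 rose by 1.21 (other probe 0.10). Htr3a, the serotonin-gated channel, and P2rx3, the ATP-gated channel, fell by 1.07 and 1.28. Of 36 axon guidance genes, 14 rose and 9 fell, shares near the 32.9% and 28% of all genes (median 0.19). Efna3 rose by 1.58 and Nfasc by 1.37 (other probes 0.74 and 0.39), while Plxna4 fell by 1.82 with WT-d samples at 7.63, 9.01, 7.83 and 9.26 (1 of its other probes -0.42). Ncam1 fell by 1.52 on its brightest probe, and its 7 probes ran from -1.64 to 0.39.

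Transcription factors of the sympathoadrenal lineage fell more often than they rose. Of 21 tested, 11 fell and 2 rose (median -0.41). Insm1 read 10.35 to 11.16 in WT-p and 8.65 to 8.87 in WT-d (log2 -1.96, SE 0.12, adjusted p = 2.87e-11). Tbx3 fell by 1.77 and Isl1 by 1.03, whereas Hand2 and Gata3 differed by -0.19 and -0.02 (adjusted p = 0.142 and 0.90). Of 22 Hu proteins and splicing regulators, 7 rose and 9 fell, against 32.9% and 28% of all genes (median -0.09). Elavl1 (HuR), the ubiquitous member of the Hu family that the study is about, differed by -0.32 (SE 0.10, adjusted p = 0.00936) with overlapping groups, and its 3 probes read -0.32, -0.10 and -2.57. Elavl4 (HuD), a neuronal member, fell by 1.32, Ptbp1, the repressor of neuronal splicing, by 1.63, and Celf6 rose by 1.78. Of the cold-inducible RNA binding proteins, Rbm3 read 14.06 to 14.74 in WT-p and 10.59 to 11.06 in WT-d (log2 -3.57, adjusted p = 1.96e-13) on 1 probe and -0.05 on another, and Cirbp differed by 0.39 (adjusted p = 0.0303). Of 24 Notch and progenitor genes, 9 rose and 11 fell, against 32.9% and 28% of all genes, with Lin28a, an RNA binding protein of progenitors, at -1.79 and Dlk1 at 0.51 (adjusted p = 0.293).

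Lysosome and autophagy genes rose. Of 47 tested, 31 rose and 6 fell (median 0.55), and 29 rose and 2 fell without WT-p replicates 1 and 3. Neu1, lysosomal sialidase, read 12.10, 12.51, 12.12 and 12.20 in WT-p and 14.18, 14.30, 14.13 and 14.51 in WT-d (log2 2.07, SE 0.11, adjusted p = 1.42e-12). Glb1, beta-galactosidase, rose by 1.79 (other probes 1.03 and -0.45), Gabarapl1, an autophagosome protein, by 1.77, Ctsb by 1.54 (other probe 0.69), Ulk1, the autophagy kinase, by 1.34, and Ctsd, cathepsin D, by 1.16. The promoter of Ctsd is shown for the CACGTG letters (either strand), which TFEB and related factors read, and which 12 of 35 lysosomal promoters (34.3%) held, against 7.2% of all promoters and 11 of 42 ribosome biogenesis promoters (26.2%), a list that fell. It lies at chr7:142387778-142388077 on the minus strand of GRCm38.p6, from RefSeq.
Ctsd: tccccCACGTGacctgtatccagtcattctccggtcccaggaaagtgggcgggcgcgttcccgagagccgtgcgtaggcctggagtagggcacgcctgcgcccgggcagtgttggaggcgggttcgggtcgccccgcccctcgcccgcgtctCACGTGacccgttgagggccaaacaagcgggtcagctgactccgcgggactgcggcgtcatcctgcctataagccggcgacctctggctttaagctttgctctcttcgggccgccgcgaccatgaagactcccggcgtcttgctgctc
Of 22 FoxO targets and growth factor receptors, which growth factor signalling holds low, 16 rose and 3 fell (median 0.66). Irs1 rose by 1.95 (other probe 0.21), Sesn1 by 1.44 (other probes 0.93 and 0.42), Pik3ip1, an inhibitor of PI3 kinase, by 1.40 (other probe 0.14, adjusted p = 0.30), and Fbxo32 by 1.33.

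Glycolysis and hypoxia genes rose, by amounts that depended on which WT-p samples entered. Of 36 tested, 21 rose and 2 fell (median 0.72), and without WT-p replicates 1 and 3, 19 rose and 4 fell (median 0.49). The list mean was 12.74 and 12.66 in WT-p replicates 1 and 3, 13.30 and 13.30 in WT-p replicates 2 and 4, and 13.59 to 13.73 in WT-d. Aldoc, a brain aldolase, read 10.60 and 10.28 in WT-p replicates 1 and 3, 12.76 and 12.37 in replicates 2 and 4, and 13.31 to 13.73 in WT-d. Its difference was 2.01 with all samples and 0.97 without replicates 1 and 3 (adjusted p = 0.000505), and its other probe read 0.91. Bnip3, a mitophagy receptor, read 12.62, 13.94, 12.55 and 13.90 in WT-p and 14.18 to 14.45 in WT-d, and its difference of 1.12 became 0.42 (adjusted p = 0.166). P4ha1, a collagen hydroxylase, was less affected, at 1.97 and 1.62. Vegfa rose by 1.54 (1 of its other probes 0.79), Adm, adrenomedullin, by 1.95, and Slc2a1, the glucose transporter, by 1.27, whereas Ldha, lactate dehydrogenase, differed by -0.41 (adjusted p = 0.0696). WT-p replicates 1 and 3 are the pair with the tube labels 1b and 1. What set them apart from replicates 2 and 4 was not tested.

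Interferon-type genes rose in most cases, 19 of 28 tested against 1 that fell (median 0.48). Rsad2 (viperin) read 7.12, 8.54, 6.85 and 7.74 in WT-p and 10.55 ± 0.07 (SD, n = 4) in WT-d (log2 3.01, SE 0.23, adjusted p = 4.64e-10; other probes 1.55 and 1.15), and Mx2 rose by 2.73. Ifit1 rose by 1.45, while Isg15 differed by 0.53 (adjusted p = 0.0635) and by 0.03 without WT-p replicates 1 and 3. Of 14 class I antigen presentation genes, 7 rose and 1 fell, against 32.9% and 28% of all genes. Tapbp, tapasin, was at 2.29 (other probe 0.48) and H2-D1 at 1.04. Of 35 Nrf2 targets and antioxidant genes, 12 rose and 14 fell, against 32.9% and 28% of all genes. Gstm1 rose by 2.21 while Hmox1 and Gpx1 fell by 1.22 and 1.27. Of 29 p53 targets, 15 rose and 9 fell, against 32.9% and 28% of all genes, led by Trp53inp1 at 2.24 (other probe 0.96). Their median was 0.27, and 0.16 without WT-p replicates 1 and 3. Of 30 matrix and adhesion genes, 14 rose and 4 fell, with Timp2 at 1.67 and Serpinh1, the collagen chaperone, at -1.58.

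The largest rise among called genes with a symbol and separate groups was that of Tmem130. This membrane protein gene (probe at chr5:144989470-144989529 of mm8), read 7.16, 7.75, 6.84 and 7.60 in WT-p and 11.43, 11.55, 11.27 and 11.25 in WT-d, a 15.2-fold rise (log2 3.93, SE 0.52, adjusted p = 1.08e-06). Caly, calcyon, a neuronal vesicle protein, rose by 3.77 with all samples and by 2.92 without WT-p replicates 1 and 3. Txnip, which binds thioredoxin and limits glucose uptake (probe at chr3:96646629-96646688 of mm8), read 8.13, 9.43, 8.30 and 8.88 in WT-p and 12.31 to 12.65 in WT-d (log2 3.72, SE 0.31, adjusted p = 1.85e-09; other probe 1.53). All WT-d samples of these 3 genes lay above all WT-p samples, which the rule that picked them required. Fn3k, a kinase of glycated proteins, rose by 3.63, Tmem140 by 3.60, Slc47a1, a cation exporter, by 3.53, Elapor1 by 3.40 (other probe 0.74), Clu, the chaperone clusterin, by 3.11, and Plekhg1 by 3.13. Cds2, of phosphatidylinositol synthesis, rose by 3.20 on its brightest probe, and its 5 probes ran from 0.00 to 3.20. Osgin1, an oxidative stress induced growth inhibitor, read 7.93 to 8.35 in WT-p and 11.36 to 11.57 in WT-d (log2 3.30, SE 0.13, adjusted p = 5.15e-14; other probes 1.87 and 0.51). S100a6, a calcium binding protein, rose by 1.18. F2, which encodes prothrombin, was above background in no WT-p sample and in all WT-d samples, and was at least 3.13-fold higher. Cst12 and Lyz2, a lysozyme on the blood marker list, were detected in the same pattern, which the rule for genes measured in 1 group only asks for. Their WT-d samples read 7.37 to 8.14 and 7.35 to 7.90, with fitted differences of 1.28 and 1.17 (adjusted p = 0.000172 and 0.0118), and Lyz2 was not called in 2 of 23 settings (adjusted p up to 0.212).

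Cobalamin genes are of interest because the transfected lines of the series carry transcobalamin fusions. Of 19 tested in the untransfected cells, 6 rose and 7 fell, shares near the 32.9% and 28% of all genes (median -0.06, with a sign that changes under some of the other processing settings). Without WT-p replicates 1 and 3, 4 rose and 8 fell. Tcn2, transcobalamin itself, read 7.92, 8.21, 7.91 and 8.30 in WT-p and 9.17, 9.12, 8.95 and 8.87 in WT-d (log2 0.94, SE 0.10, adjusted p = 3.02e-08). Cd320, its receptor, rose by 0.81, and Lmbrd1, the lysosomal exporter, by 0.97 (other probe 0.25, adjusted p = 0.118). Among enzymes, Mtr, methionine synthase, fell by 1.18 (SE 0.21, adjusted p = 5.97e-05; other probe -0.35), Mmachc, which processes cobalamin in the cytosol, by 1.19 and Mmab, which makes the adenosyl form, by 1.01 (other probe -0.62). The deacetylase Sirt1 fell by 0.90.

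The response of the transfected lines to the same medium was set beside that of the untransfected cells. In TO cells 6516 genes were called (40.1%) and in OT cells 10075 (62%). Over genes, the WT response had a correlation of 0.798 with that of TO and 0.855 with that of OT, from different samples on shared arrays. The difference of the responses was called for 4798 genes between WT and TO (29.5%) and for 4010 between WT and OT (24.7%). Each line has its own proliferating control, and whether the transfected lines are single clones is not given in the sources used here. Without WT-p replicates 1 and 3, these counts were 2620 and 3975, so the count against TO rests in part on those samples.

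The cell cycle lists fell in all 3 lines. The mitotic median was -4.01 in WT, -3.37 in TO and -3.34 in OT. The WT response was below that of TO for 1 of the 50 genes (background 14.4%) and below that of OT for 14 (background 15.1%). Replication genes had medians of -2.31, -1.76 and -2.43, and 28 of 52 were called lower in the response of WT than in that of TO, while 7 were called higher than in OT (background 9.57%) and 6 lower. Ribosome biogenesis had medians of -0.85, -0.09 and -0.96, with 30 of 47 genes lower against TO and 1 higher (background 15.1%). Aminoacyl-tRNA synthetases had -0.84, -0.24 and -0.67, with 13 of 19 lower against TO and 1 lower against OT. Cholesterol synthesis had -0.47, -0.43 and 0.04, with 9 of 26 lower against TO and 16 lower against OT, and fatty acid synthesis had -0.47, -0.25 and -0.20, with 5 and 9 of 19 lower. Glycolysis and hypoxia genes had 0.72, 0.18 and 0.83, with 11 of 36 higher against TO and 13 lower against OT. Neurofilament and growth cone genes had -0.03, 0.02 and 0.57, with 21 of 36 lower against OT. Without WT-p replicates 1 and 3, the WT medians were -3.89 for mitosis, -2.20 for replication, -0.68 for ribosome biogenesis and -0.78 for synthetases. They were -0.60 for cholesterol, -0.64 for fatty acid, 0.49 for glycolysis and hypoxia and -0.05 for neurofilament genes. The list counts against TO and OT were not redone without those samples.

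**Figure D5:**
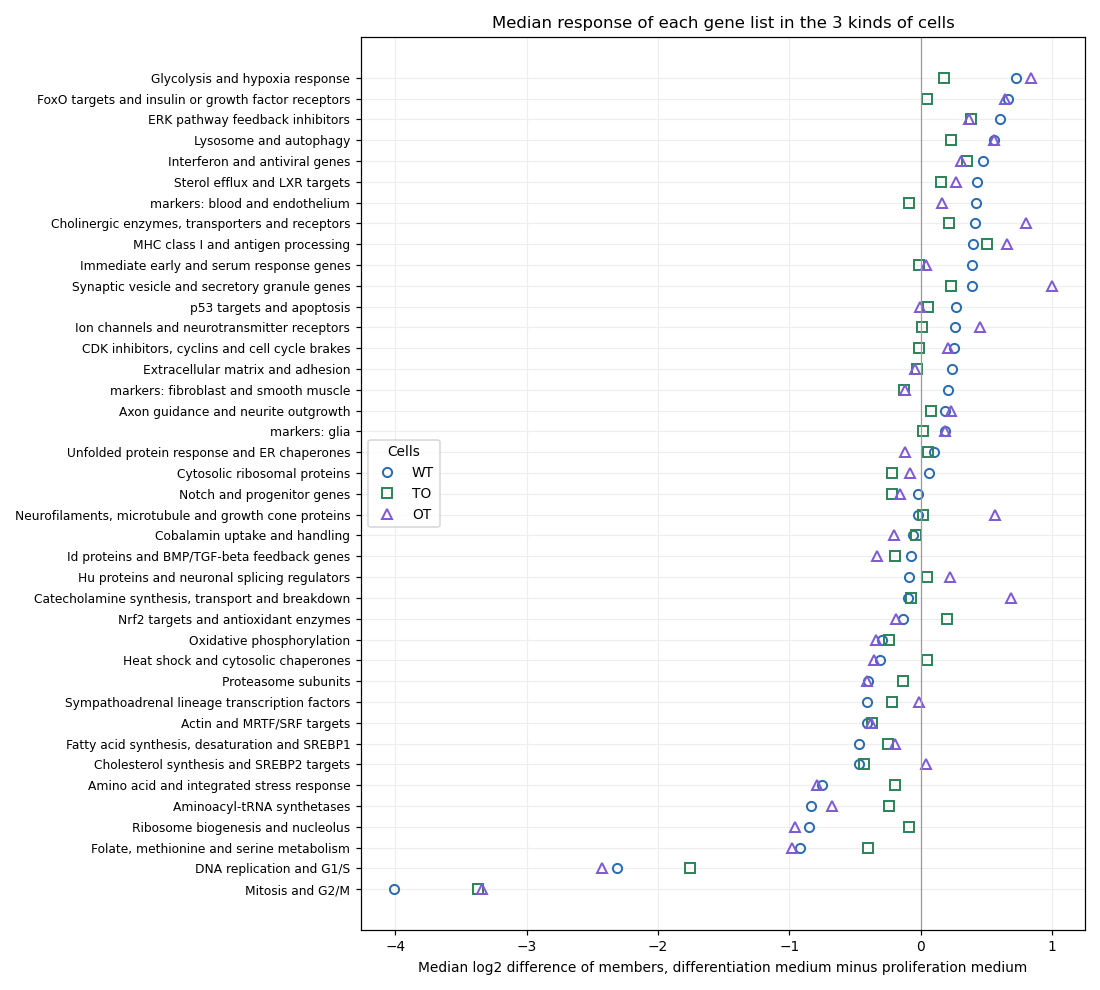
Median log2 difference (differentiation minus proliferation medium, x axis) of the tested members of 40 gene lists in untransfected cells (WT, blue circles), TO cells (green squares) and OT cells (purple triangles). Mitosis lies lowest in each line, at -4.01, -3.37 and -3.34, while ribosome biogenesis is near 0 in TO (-0.09) but at -0.85 in WT and -0.96 in OT.

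Single genes with the largest differences between lines were named by a rule. Tmem130 rose by 3.93 in WT and by 3.76 in OT and stood at -0.96 in TO, a difference of 4.88 between WT and TO (adjusted p = 6.31e-05). Galnt15, a glycosyltransferase, rose by 3.31 in WT against 0.14 in TO and 0.77 in OT (differences of 3.17 and 2.54, adjusted p = 6.82e-06 and 2.52e-05). Its WT-p samples read 6.97, 8.73, 7.25 and 7.95, and its WT-d samples 10.84 to 11.15. Prss56, a serine protease, rose by 3.10 against 0.29 in TO (difference 2.81, adjusted p = 1.44e-06; other probe 1.17 in WT), and Snhg16, a small nucleolar RNA host gene, by 2.20 against -0.47 (difference 2.67, adjusted p = 8.48e-06). Sfpq, a splicing factor, fell by 3.06 against -0.25 in TO (adjusted p = 1.04e-06), but another probe of Sfpq read 0.33 in WT. Rapgef5 fell by 1.35 in WT on its brightest probe and by 1.28 to 1.73 on its other 3, whereas it rose by 0.70 in TO. Osgin1 rose by 3.30 in WT and 3.74 in TO but by 0.93 in OT (difference between WT and OT 2.37, adjusted p = 1.67e-08). The BMP-induced genes Id2, Id3 and Bambi were at -1.95, -1.43 and -1.36 in WT and at -4.24, -3.69 and -4.00 in OT. The responses of all 3 lines were spread for Ndrg1, a stress-induced gene of neurons and glia, at 1.94 in WT, -0.27 in TO and 4.26 in OT, with WT-p samples at 10.91, 12.22, 10.82 and 12.28. Agtr2, the type 2 angiotensin receptor, was at 0.69 in WT (adjusted p = 0.339) and at 4.25 in OT. The hypoxia gene Bnip3 and the glycogen phosphorylase gene Pygl were at 1.12 and 0.92 in WT and at 3.39 and 3.35 in OT.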

How the data were processed

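The deposited files hold, per the file headers, the intensity of each spot as read by Agilent Feature Extraction: raw signal and local background of both dyes. Each array carried 2 samples, and the dye label assigned each sample its own channel. From these intensities, control spots and outlier flags (0.294% of values) were left out, and limma 3.58.1 (R 4.3.3) gave normexp background correction (offset 50), loess within arrays and Aquantile between the 12 arrays. Spots of a probe were averaged, and each gene was read from its brightest probe on average. Other probes are given where their sign or call differs or their difference is over 1.5 times larger or smaller. Probe names came from RefSeq accessions for 24375 probes, symbols for 6301 and synonyms for 2426, with the file's own name for 8072. Genes dim in every group (11357) were not tested. All 24 samples in 6 groups entered 1 fit with the dye as a term and the array as a block (correlation 0.264), followed by eBayes and Benjamini-Hochberg adjustment over 16240 genes. Fits were tested on simulated data.

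The samples, genes and lists were chosen with earlier results of these data known, so list counts are descriptions: 1077 of 1224 listed genes in 40 lists passed the filter on dim signal. Named genes were the 15 largest called differences per direction with separate groups, up to 6 members per list with the largest differences, a set of genes always read out, genes measured in 1 group only, and the largest differences between lines. Results of some of these genes are not reported here. In the titles' replicate numbers, numbers 1 and 2 are always Cy5 and 3 and 4 Cy3. Alternatives covered background, normalization, filter, probe, dye, slide, replicate number, tubes and samples left out. Promoters came from RefSeq (GRCm38.p6). Their first window per symbol was searched on both strands. The number of arrays limits the precision.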

Additional observations from a re-analysis of the deposited data

Results flagged for a closer look

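Dixon's test was applied to the 4 samples of a group for each named gene and each list mean, 483 groups in all. It marked 33 of them (6.83%). The threshold marks about 1 in 20 of independent groups. These groups share samples, and list means share genes with them, so the share cannot show an excess. Of the 33 marks, 21 were WT-d replicate 4, mostly with cell cycle levels above the other WT-d samples.

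In mitotic genes, WT-d replicate 4 had levels of 8.11 for Sgo1, 10.65 for Aurka, 8.12 for Top2a, 11.18 for Cdk1, 8.34 for Foxm1, 7.09 for Kif2c, 7.13 for Aspm, 8.10 for Pbk, 8.58 for Pimreg, 8.71 for Aunip and 8.38 for Sapcd2. In replication genes it had 10.23 for Mcm3, 10.57 for Mcm5, 7.44 for Rrm2 and 9.52 for Pclaf. The mean levels of the replication and mitotic lists were 10.00 and 8.59 in this sample. It was also the highest of its group for Nsdhl at 8.16 and Scg5 at 14.64, and the lowest for Mx2 at 10.44 and for the mean of the interferon list at 9.22. Cdk1, the mitotic kinase, fell by 2.86 on its brightest probe and read -0.13 on its other probe.

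WT-d replicate 3 was the lowest of its group for E2f1 at 8.88, Scg2 at 13.27, P4ha1 at 12.54 and the mean of the synaptic and granule list at 11.21. WT-d replicate 2 was the highest for Rbl1 at 8.93 and the lowest for Etv4 at 9.51, Cplx1 at 11.06 and Flna at 12.59. Among WT-p samples, replicate 1 was the highest for Psph at 14.49, replicate 3 for Manf at 13.07 and Chga at 15.13, and replicate 2 for Dnajb4 at 9.06.

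The response to the medium differed between WT and TO, by the test of the difference, for Sfpq (-2.80), Prr9 (-2.25), Tmem130 (4.88), Galnt15 (3.17), Prss56 (2.81), Snhg16 (2.67), Ndrg1 (2.21), H1f5 (-2.25) and Rapgef5 (-2.06). Prr9, which fell by 3.95 in WT and by 1.70 in TO, and the linker histone gene H1f5, which fell by 4.68 and 2.43, moved the same way in both lines. Between WT and OT it differed for Galnt15 (2.54), Osgin1 (2.37), Id2 (2.29), Id3 (2.26), Bambi (2.63), Agtr2 (-3.56), Pygl (-2.43), Ndrg1 (-2.32) and Bnip3 (-2.27). The adjusted p-values of these 18 differences in limma ran from 1.67e-08 to 0.00369. For Bnip3 and Pygl the WT response was not called without WT-p replicates 1 and 3, at 0.42 and 0.23.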

How the results depend on the processing

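The counts of genes higher and lower stayed within 1.5 times of 5345 and 4544 under the other settings apart from those named here. Loess within arrays alone gave 2849 higher, 1721 genes differing from TO, 2192 differing from OT, 211 list members higher against 320, and a mitotic median of -3.53, and 44.1% of its calls were higher, against 54.0%. Testing every probe singly gave 7283 probes lower and a mitotic median, over probes, of -3.53. Feature Extraction's processed signals gave a mitotic median of -5.36 and a median over all genes of 0.19 in place of 0.06, and an offset of 10 gave a mitotic median of -4.54. Differences from TO numbered 2620 without WT-p replicates 1 and 3 and 2569 without the b tubes, and the replication median was -2.0 within slide 3, with 1 sample a group. The causes were not tested. Leaving out 1 WT sample at a time gave 4891 to 5230 genes higher, 4257 to 4526 lower, 3802 to 5319 differing from TO, 3491 to 4612 differing from OT, 295 to 325 list members higher, 422 to 436 lower, mitotic medians of -4.33 (without WT-d replicate 4) to -3.85 and replication medians of -2.38 to -2.26. With the replicate number as a block, which is confounded with the dye in part, 5358 genes were higher and 4524 lower. Same-numbered samples of different groups had a median correlation of -0.017 between their deviations, against -0.013 for other pairs. Same-numbered samples share a dye, and the deviations were taken from group and dye means, which lowers the correlation of such pairs. These values therefore cannot show whether the numbers pair the samples. The replicate block changed no call of a named gene. On another probe of the gene, the value had the opposite sign for Acta2 (0.10), Bub3 (0.22), Cdkn1b (-0.12), Chgb (-0.043), Flna (0.34), Glb1 (-0.45), Mxd4 (-0.014), Ncam1 (0.39), Nop56 (0.36), Racgap1 (-0.29) and Sfpq (0.33, and 0.24 for its difference from TO). Within slide 3, Chgb was at -0.29. Within slide 3, list medians moved by over 1.5 times for ribosome biogenesis (-0.51), cholesterol synthesis (-0.82), actin targets (-0.24), heat shock (-0.16), sympathoadrenal factors (-0.18), FoxO targets (0.37), ion channels (0.14) and cell cycle brakes (0.13), among others, and within slide 1 for immediate early (0.25) and cholinergic genes (0.18). Without WT-p replicates 1 and 3, 7 named genes were no longer called: Th, Racgap1, Cdkn1b, Cirbp, Pygl, Chgb and Bnip3. Values near the background of the array understate the falls of the dimmest mitotic genes.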
